A study of Mus musculus with 4 samples.

Results

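Ikzf1 encodes Ikaros, a zinc finger transcription factor of blood cells, and the CTCF peaks described here are those around this gene in mouse B cells and plasmablasts. The members are all peaks of the B cell and plasmablast lists with a midpoint on chromosome 11 between 11200000 and 11800000 (build mm9), a window of 600 kb. The B cell list contributed 17 of its 36381 peaks and the plasmablast list 10 of its 31086, so there were 27 members among 67467 peaks. The gene itself was taken as the interval from about 11.585 to about 11.673 Mb. The window was chosen by the positions and scores of peaks in these same lists, because strong B cell peaks in it lie beside plasmablast peaks without touching them. The class counts and scores of the members are therefore descriptions, and none was tested.

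CTCF binding had been mapped by chromatin immunoprecipitation sequencing in C57BL/6 mice aged 6 weeks, with 1 CTCF library and 1 input library for each of 2 cell types (4 samples). The B cells were the CD43- fraction of spleen, obtained with magnetic beads from mice for which the labels give no treatment. The plasmablasts, antibody-secreting cells that arise from activated B cells, were CD138+ spleen cells sorted by flow cytometry 3 days after 50 µg of lipopolysaccharide (LPS), a bacterial activator of B cells, had been injected behind the eye. The number of mice behind a library is not given in the sources used here, and cell identity could not be checked against marker genes, since peak lists hold no expression. No spread between replicates could be measured, and no test between the cell types was made. The B cell libraries were sequenced on a Genome Analyzer II and the plasmablast libraries on a HiSeq. Cell type, LPS injection, method of isolation and instrument thus changed together and cannot be told apart.

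CTCF is a zinc finger protein that holds cohesin at chromatin loop anchors, which can bring regulatory elements to a promoter or keep them from it. Ikaros is needed for lymphocyte development and binds many of the genes that B cells switch on or off. In the RefSeq gene order (GRCm38.p6), the protein-coding neighbours of Ikzf1 are Zpbp, Spata48 and 4930512M02Rik on the 5′ side and Fignl1, Ddc and Grb10 on the 3′ side. Zpbp encodes a sperm protein that binds the egg coat, Ddc the decarboxylase that makes dopamine and serotonin, and Grb10 an imprinted adaptor of insulin receptor signalling. No mm9 annotation was used here, so which peaks lie in these neighbours was not determined. For the same reason the base sequence of the peaks is not shown.

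RefSeq lists 2 promoter windows for Ikzf1, and both are printed because 2 B cell peaks at the start of the gene interval had nearly the same spacing. The peaks began 4281 bp apart in mm9, and the windows begin 4252 bp apart in GRCm38.p6. Since the builds differ, the coordinates of the windows cannot be set against those of the peaks. It was not determined whether the peaks lie on the windows, nor how often such a match in spacing arises. Each sequence gives the 250 bases before a transcription start, 5′ to 3′ on the plus strand, with CpG dinucleotides in capitals, because methylation of CpGs can prevent CTCF binding.
Ikzf1 promoter 1, chr11:11685675-11685924: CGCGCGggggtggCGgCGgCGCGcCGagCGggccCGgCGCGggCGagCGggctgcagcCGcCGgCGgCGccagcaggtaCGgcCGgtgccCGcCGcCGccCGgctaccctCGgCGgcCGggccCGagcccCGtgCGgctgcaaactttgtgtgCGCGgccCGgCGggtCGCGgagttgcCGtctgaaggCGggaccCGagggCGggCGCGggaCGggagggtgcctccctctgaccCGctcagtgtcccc
Ikzf1 promoter 2, chr11:11689927-11690176: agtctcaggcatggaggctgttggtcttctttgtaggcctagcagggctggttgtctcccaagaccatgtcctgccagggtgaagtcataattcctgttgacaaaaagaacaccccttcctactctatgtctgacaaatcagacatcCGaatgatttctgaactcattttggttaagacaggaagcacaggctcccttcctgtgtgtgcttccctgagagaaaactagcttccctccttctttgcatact
The first promoter held 44 CpGs and the second 1, against a median of 6 over the 32851 RefSeq promoter windows of the mouse. The first had more CpGs than 99.5% of those windows and the second more than 7.87%. The letters AGGNGGC, part of the CTCF consensus, were searched on both strands and matched in 0 of these 2 windows, against 25.0% of all windows of that length. This says only that these letters are not in the 250 bases shown.

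Peaks of the 2 lists that had 1 bp or more in common were called shared. A peak was called adjoining if it was not shared but the other list had a midpoint within 500 bp of its own, and otherwise it was in 1 list only. Of the 17 B cell peaks, 7 were shared (41.2%, exact Clopper-Pearson 95% binomial interval 18.4 to 67.1%), 2 were adjoining and 8 were in 1 list only. Over the whole B cell list these classes made up 67.9%, 0.792% and 31.3% of the peaks. Of the 10 plasmablast peaks, 7 were shared (70.0%, interval 34.8 to 93.3%), 2 were adjoining and 1 was in 1 list only, against 79.5%, 1.3% and 19.2% of the whole list. The intervals cover counting error only, treat the peaks as independent and make no allowance for the choice of the window by these same peaks. They are therefore no test against the whole list. The 27 peaks thus marked 18 positions, 9 of them with a peak in both lists.

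The scores are the authors' own values and have no stated unit, so each is given with its percentile within its own list. The median score was 62.1 in the B cell list and 19.4 in the plasmablast list, and a score is not compared across the lists. A score comes from many cells, and fewer cells with bound CTCF cannot be told apart from less CTCF bound per cell. Around Ikzf1 the median percentile was 40.8 for the 17 B cell peaks and 83.5 for the 10 plasmablast peaks. The B cell members ran from the 2.6th to the 97.9th percentile, with 10 of 17 below their list's median score. The plasmablast members ran from the 33.7th to the 96.3rd, with 2 of 10 below the median. The plasmablast list thus held fewer peaks here, and most of them ranked high. By class, the B cell and plasmablast medians were 63.2 and 79.4 for shared members and 96.7 and 93.5 for adjoining ones. For members in 1 list only they were 19.1 over 8 B cell peaks and 81.2 for 1 plasmablast peak. The medians over all members thus mix classes in unlike shares.

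**Figure D1:**
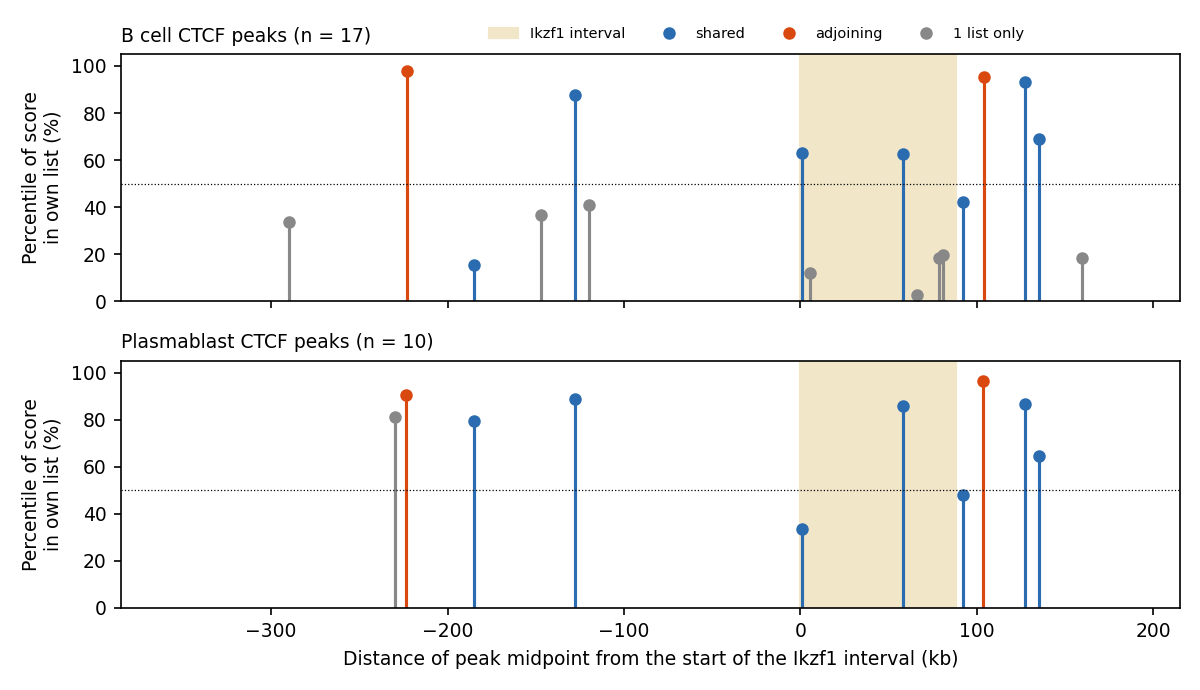
Percentile of each CTCF peak's score in its own list (y axis, %) against the distance of its midpoint from the start of the Ikzf1 interval (x axis, kb), for 17 B cell peaks (top) and 10 plasmablast peaks (bottom). The shaded band is the Ikzf1 interval, the dotted line is the list median and colours give the class. The 8 B cell peaks without a counterpart (grey) all lie below the median line, and the 2 adjoining pairs (orange) stand near the top on either side of the gene.

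The 2 adjoining pairs flanked the gene, one on each side, and both their peaks were among the strongest in the window. On the 5′ side, 222.9 kb before the interval, the B cell peak at chr11:11361903-11362207 scored 277.9 (97.9th percentile). Its plasmablast neighbour at chr11:11361617-11361795 scored 56.4 (90.7th percentile), with midpoints 349 bp apart and 107 bp between the edges. On the 3′ side, 15.9 kb past the end of the interval, the B cell peak at chr11:11688763-11689067 scored 253.8 (95.5th percentile). The plasmablast peak beside it at chr11:11688522-11688700 scored 68.9 (96.3rd percentile), with midpoints 304 bp apart and a gap of 62 bp. In both pairs the plasmablast peak lay at the lower coordinate. Over the whole lists this was so in 50.5% of the 289 adjoining pairs, which shows no general shift to one side.

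Strong adjoining pairs were rare in the series. An adjoining B cell peak stood at a median of the 24.3rd percentile over the whole list, and 1.38% of the 289 pairs (4 pairs) had both peaks in the highest decile. Of these 4 pairs, 2 were the pairs around Ikzf1. Among B cell peaks of the highest decile, 0.327% (12 of 3669) overlapped no plasmablast peak, and 2 of those 12 were here. By score they were the third and sixth of all non-overlapping B cell peaks. These values follow from the choice of the window and support nothing further.

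The class of the 3′ pair depended on peak width. B cell peaks were 305 bp wide and plasmablast peaks 179 bp, so 2 peaks overlapped only if their midpoints lay less than 242 bp apart. With plasmablast peaks widened to 305 bp about their midpoints, the 3′ pair at 304 bp became shared and the 5′ pair at 349 bp stayed apart. Widening had the same effect on 48.1% of all adjoining pairs. The shared site nearest the limit in this window had an offset of 76 bp, and the next non-overlapping neighbour beyond the adjoining pairs was 4258 bp away. No member therefore lay between 76 and 304 bp from its counterpart.

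**Figure D2:**
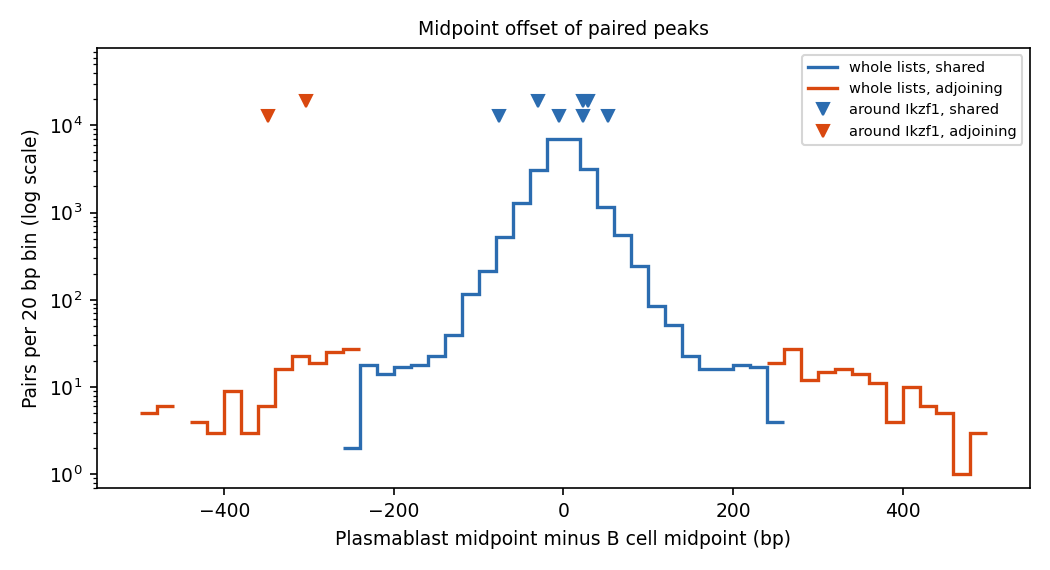
Number of paired peaks per 20 bp bin (y axis, log scale) against the plasmablast midpoint minus the B cell midpoint (x axis, bp), for all shared sites (blue line) and all adjoining pairs (orange line). Triangles mark the 7 shared and 2 adjoining pairs around Ikzf1 and their height carries no value. The shared pairs around Ikzf1 lie within 76 bp of 0, and the adjoining ones at -304 and -349 bp.

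The 4 positions with the highest scores were the same in both lists, though not in the same order. In B cells the pairs described above came first and second. They were followed by the shared peak at chr11:11712003-11712307, 39.2 kb past the gene interval, with a score of 237.1 (93.3rd percentile). The fourth was the shared peak at chr11:11457188-11457492, 127.7 kb before the interval, with 204.7 (87.8th percentile). The plasmablast peaks at these shared sites scored 50.4 (86.7th percentile) and 53.2 (88.8th percentile), and their midpoints lay 5 and 30 bp from those of the B cell peaks. All 4 positions lay outside the gene interval, 2 on each side. Without replicates, neighbours in these orders cannot be said to differ.

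At the 5′ end of Ikzf1 a shared site ranked higher in B cells. The B cell peak at chr11:11585955-11586259, 1.1 kb into the interval, scored 97.2 (63.2nd percentile), and the plasmablast peak at chr11:11586041-11586219 scored 12.3 (33.7th percentile). It was the lowest scoring plasmablast peak of the window. The plasmablast percentile was lower by a difference of -29.5 points. Of the 24702 shared sites, 14.91% had a lower difference, so a shift of this size was not rare. With percentiles among shared peaks alone the difference was -20.0 points.

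The other shared site inside the gene ranked higher in plasmablasts. It lay 57.9 kb into the interval, with a B cell peak at chr11:11642772-11643076 scoring 95.4 (62.7th percentile) and a plasmablast peak at chr11:11642864-11643042 scoring 49.3 (85.8th percentile). The difference was 23.1 points, above that of 93.43% of shared sites, and 36.4 points with percentiles among shared peaks alone. In B cells both sites of the gene body thus had nearly equal scores, while in plasmablasts the inner one was much the stronger.

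Of the 7 shared sites, the one with the largest rank difference was upstream. At chr11:11400037-11400341, 184.8 kb before the interval, the B cell peak was weak, with a score of 21.3 (15.2nd percentile). The plasmablast peak at chr11:11400024-11400202 scored 41.8 (79.4th percentile), a difference of 64.2 points. Only 80 of the 24702 shared sites, this one included, had a difference at least as large. The site was picked as the largest of 7, so its rank among single sites is high by choice. Such a difference is also possible only where the B cell percentile is low, and its median over all shared sites was 65.4. Its midpoints were 76 bp apart, farther than at 95.5% of shared sites, and the plasmablast peak reached past the edge of the B cell peak. Among B cell peaks of its decile, the second lowest, 28.7% were shared.

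The 2 other shared sites, both on the 3′ side, had percentiles within 5.9 points of each other. The one 3.9 kb past the interval, at chr11:11676786-11677090 in B cells, scored 47.2 there (42.0th percentile) and 18.3 in plasmablasts (47.9th percentile). The one 47.4 kb past it, at chr11:11720232-11720536, scored 117.6 (68.9th percentile) and 28.8 (64.4th percentile). With percentiles taken among shared peaks alone, the differences became 19.0 points at the former and 4.0 at the latter, which had been -4.5. How alike these sites ranked thus depended on the reference. Of the 7 shared sites, 4 had the higher percentile in plasmablasts, against 33.9% of all shared sites. Over those the median difference was -7.16 points, with quartiles at -21.3 and 4.3.

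**Figure D3:**
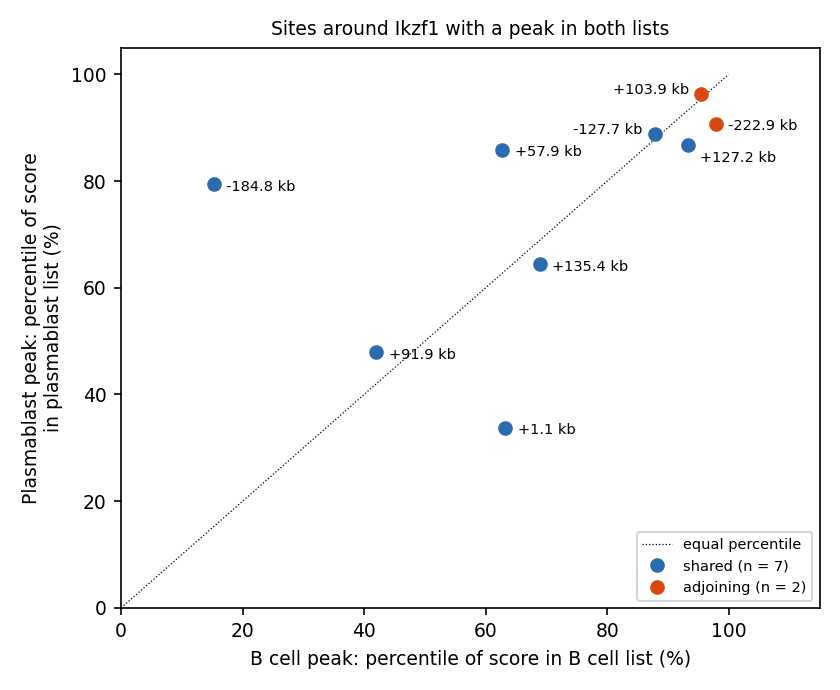
Percentile of the plasmablast peak in its list (y axis, %) against that of the B cell peak in its list (x axis, %) for the 9 positions around Ikzf1 with a peak in both lists, labelled with the distance from the start of the gene interval. The dotted line marks equal percentiles. The site at -184.8 kb lies far above the line (15.2 and 79.4) and the site at +1.1 kb below it (63.2 and 33.7).

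**Figure D4:**
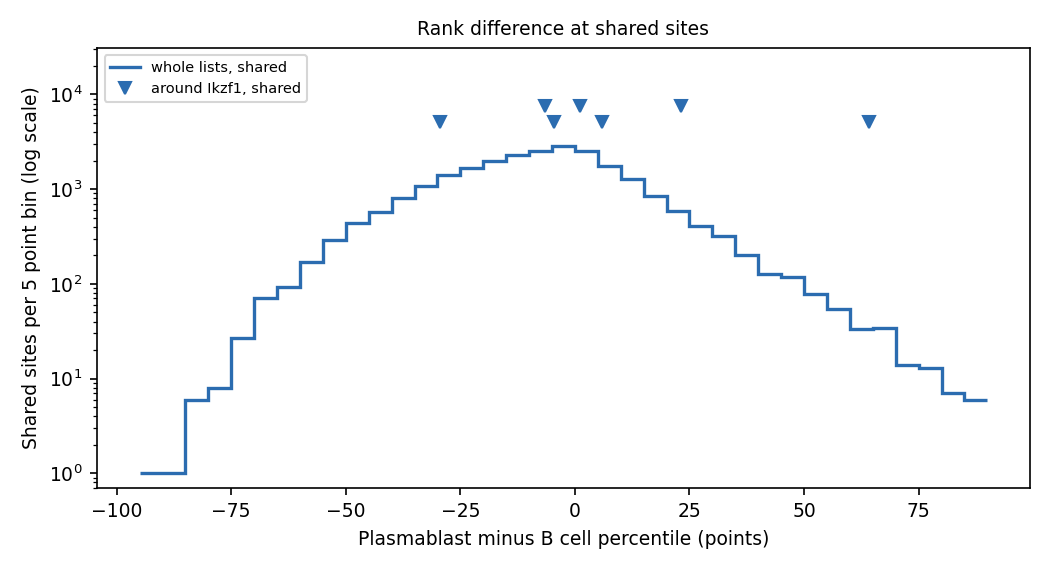
Number of shared sites per bin of 5 percentile points (y axis, log scale) against the plasmablast percentile minus the B cell percentile (x axis, points), for all 24702 shared sites. Triangles mark the 7 shared sites around Ikzf1 and their height carries no value. One site, at 64.2 points, lies in the right tail, and the others lie between -29.5 and 23.1 points.

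B cell peaks with no plasmablast midpoint within 500 bp were weak. Of these 8 peaks, 4 lay within the gene, which held 6 of the 17 B cell members. All 8 lay below the median score of the B cell list, between the 2.6th and 40.8th percentiles, as did 90.7% of the 11391 B cell peaks in 1 list only. Their median percentile of 19.1 was near the 19.8 of that class over the whole list. Conversely, all 7 B cell members at or above the median had a shared or adjoining plasmablast peak, against 94.2% of such peaks genome-wide. Of the 8 plasmablast members at or above the median of their list, 7 had a B cell counterpart, against 91.1%. In strength, the B cell members in 1 list only were thus like that class over the whole list. Their share was 47.1% of the B cell members (exact 95% binomial interval 23.0 to 72.2%), against 31.3% of the list. That interval contains the share of the list, and the difference was not tested.

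Of the 6 B cell peaks inside the Ikzf1 interval, 4 were in 1 list only. The one at chr11:11590236-11590540, 5.4 kb into the interval, scored 19.4 (12.0th percentile). Its spacing from the shared peak before it is the one given above beside that of the promoter windows. Whether it lies on a promoter was not determined. The one at chr11:11650895-11651199, 66.0 kb in, scored 13.9 (2.6th percentile) and was the weakest member. The last ones formed a close pair 1957 bp apart near the 3′ end, at chr11:11663452-11663756 with 23.2 and chr11:11665409-11665713 with 24.1 (18.4th and 19.8th percentiles). The nearest plasmablast midpoints to these 4 peaks were 4258 to 13387 bp away.

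In the flanks the 4 other B cell peaks in 1 list only scored higher on the 5′ side, with no spread to set this against. These were at chr11:11294699-11295003 (score 36.1, 33.7th percentile), chr11:11437742-11438046 (39.8, 36.7th) and chr11:11464827-11465131 (45.4, 40.8th). The single one on the 3′ side, at chr11:11744274-11744578, scored 23.2 (18.4th percentile). By zone, the median percentile of B cell peaks was 38.8 over the 6 of the 5′ flank, 19.1 over the 6 of the gene and 68.9 over the 5 of the 3′ flank. For plasmablasts it was 85.0 over 4 peaks, 59.8 over 2 and 75.6 over 4. The gene interval had the lowest median in both lists. In plasmablasts it rested on 2 unlike peaks, at the 33.7th and 85.8th percentiles, and the higher of them was above both flank medians.

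The single plasmablast peak in 1 list only was a strong one. It lay at chr11:11355154-11355332, 229.8 kb before the gene interval, and scored 43.8 (81.2nd percentile). The plasmablast peak of the 5′ adjoining pair was 6.5 kb from it, and the nearest B cell midpoint was 6812 bp away. Of the 5979 plasmablast peaks in 1 list only, 3.91% scored at least as high, and 76.9% lay below the list's median score. The 5′ flank around this position therefore held 3 plasmablast peaks that differed in class or rank from the B cell list. These were 1 without a counterpart, 1 beside a B cell peak and 1 on a B cell peak of much lower percentile in its own list.

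The spacing of peaks varied over the window. Between members, the widest gap lay just before the gene, with 121.1 kb between B cell midpoints and 128.8 kb between plasmablast midpoints. It was wider than 90.3% and 87.9% of the gaps in those lists. A widest gap is picked from several, so its rank among single gaps is high by choice. From the window's start to the first member there were 94.9 kb in the B cell list and 155.2 kb in the plasmablast list. Both of these empty stretches ran on past the window's edge. The B cell list held 28.3 peaks per Mb in the window, against 24.9 per Mb on chromosome 11 as a whole, and the plasmablast list 16.7 against 20.5. Among windows of 600 kb tiled along the autosomes and X, 81.5% of 4399 held fewer B cell peaks and 69.4% of 4407 fewer plasmablast peaks. The next peaks outside the window were shared sites on both sides. The one before it, 60.5 kb from the edge, scored 48.2 in B cells (42.6th percentile) and 42.5 in plasmablasts (80.0th percentile). The one after it, 73.6 kb from the edge, scored 147.3 (76.0th percentile) and 25.8 (60.1st percentile).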

How the data were processed

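The data were 2 peak lists, 1 per CTCF library, as the authors deposited them, with position, name, score and strand per peak. Bowtie, HOMER and the build mm9 were used, per the submitters' processing notes. The sources used here give no versions or peak thresholds, do not say how the input was used and name no pooled libraries. The score in the deposited lists has no stated unit, and the libraries' depth is unknown. Input libraries were not analysed here. Positions were read as BED and are printed 1-based. Percentiles are mid-ranks of the score in the whole list, and deciles are cut from them. Classes were computed over the whole lists, tested on simulated pairs of known offset, and the 24702 shared B cell peaks were checked with bedtools 2.31.1. The members, classes and lists were chosen with earlier results of these data known. Every peak of the window is named or counted. The rule names Ikzf1 and gives in full the adjoining pairs, the peaks in the gene interval and the 5 highest scoring shared and 1-list-only peaks of each list. No list of pathway genes was counted, since the lists pair no peak with a gene. Promoter sequences are RefSeq's on GRCm38.p6, cut to the 250 bases before the start. Alternatives changed the overlap rule, the adjoining distance, the peak width, the score threshold, the window and the reference for percentiles. Python 3.11.15, numpy 2.4.6, pandas 2.3.3, scipy 1.17.1 and matplotlib 3.10.9 were used.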

Additional observations from a re-analysis of the deposited data

How the results depend on the processing

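Requiring 50% of both peaks to overlap, or midpoints within 100 bp, left every class count of the window as it was. Of 37 alternatives over the class counts and median percentiles, 27 stayed within 1.5 times the count or within the binomial interval of the median, and 10 moved. With peaks at or above their list's median score, 4 peaks of each list were shared in place of 7, and 1 B cell and 2 plasmablast peaks were in 1 list only in place of 8 and 1. A peak whose counterpart is under the median counts there as in 1 list only. Within 100 kb of the gene interval there were 1 adjoining pair, 5 B cell peaks in 1 list only and 0 such plasmablast peaks. Widened plasmablast peaks left 1 adjoining pair. With a limit of 300 bp there were 0 adjoining pairs, and 10 B cell and 3 plasmablast peaks were in 1 list only. The B cell peaks of the adjoining pairs, at the 97.9th and 95.5th percentiles, were then among them, so not all peaks of that class were weak. The median percentile lay between 21.2 and 42.0 for B cell peaks and between 75.1 and 83.5 for plasmablast peaks. For the percentile differences at shared sites, alternatives added after seeing the data were ranks among chromosome 11 peaks or among shared peaks. Of these 14, 1 was reversed: the site 47.4 kb past the gene went from -4.5 to 4.0 points among shared peaks. Another 2 moved by over 10 points under the same reference, from 5.9 to 19.0 at the site 3.9 kb past the gene and from 23.1 to 36.4 at the site 57.9 kb into it. The site 184.8 kb before the gene kept its difference, at 63.2 and 71.7 points. No paired analysis was possible because the labels number no replicates, and with 1 library per cell type none could be left out. As the depth cannot be read from the files, CTCF may also bind in the cells at positions that were not listed.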
